A study of Mus musculus with 8 samples.

Results

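The neurotransmitter identity genes are a set of 10 mouse genes whose products make a transmitter, load it into synaptic vesicles or take it back up: Slc17a6, Slc17a7, Slc32a1, Gad1, Gad2, Slc6a5, Chat, Slc18a3, Th and Tph2. They were chosen by symbol, and 9 of the 10 were matched among the 37558 genes of the count table. Slc18a3, the vesicular acetylcholine transporter, was not matched by its Ensembl identifier and is not analysed here. The study exchanged the DNA-binding domain between factors that drive different cell fates. MyoD drives skeletal muscle, NeuroD2 drives neurons, and both bind DNA through a basic helix-loop-helix (bHLH) domain. P19 cells, a mouse embryonal carcinoma line that can form neurons or muscle, were infected with lentivirus carrying GFP, MyoD, NeuroD2, the MD(ND2bHLH) chimera (MyoD with the bHLH domain of NeuroD2), or a WC or WCS mutant of that chimera. The labels say nothing more of what was mutated. A second culture of the chimera and one of WCS received virus at a multiplicity of infection (MOI) of 100, and no MOI is given for the other 6 libraries. All 8 cultures were infected with polybrene present and later moved to Neurobasal medium with B27 supplement and glutamine. The GFP library is thus a control for infection and medium together. Its MOI is not given, so it may not match the virus dose of the MOI 100 libraries. Each of the 8 groups had 1 library, so a difference between libraries has no replicate check.

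A neuron's transmitter follows from a small set of proteins. Slc17a6 (VGLUT2) and Slc17a7 (VGLUT1) load glutamate into vesicles. Gad1 and Gad2 make GABA from glutamate, and Slc32a1 loads GABA and glycine. Slc6a5 takes glycine back into glycinergic terminals. Chat makes acetylcholine, and Th and Tph2 carry out the rate-limiting steps of catecholamine and neuronal serotonin synthesis. In the mouse brain VGLUT2 is typical of thalamus, brainstem and young neurons, and VGLUT1 of mature cortex and hippocampus. bHLH factors bind E-boxes, with CAGATG preferred by NeuroD2, CAGGTG by MyoD and CAGCTG open to both.

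The promoters of the pair of glutamate transporter genes are shown because these genes carry the main results and differed in the MyoD library. The 250 bases before each RefSeq start (GRCm38.p6, plus strand) that hold no annotated exon read as follows, with matches to the 3 motifs just named in capitals and all other E-box sequences in lower case.
Slc17a6, first start, chr7:51621580-51621829: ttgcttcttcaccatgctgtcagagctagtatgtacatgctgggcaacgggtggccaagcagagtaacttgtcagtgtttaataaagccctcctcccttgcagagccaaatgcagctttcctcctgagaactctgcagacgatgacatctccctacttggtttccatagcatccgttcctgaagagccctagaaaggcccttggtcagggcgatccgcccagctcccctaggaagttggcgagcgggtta
Slc17a6, second start, chr7:51624387-51624636: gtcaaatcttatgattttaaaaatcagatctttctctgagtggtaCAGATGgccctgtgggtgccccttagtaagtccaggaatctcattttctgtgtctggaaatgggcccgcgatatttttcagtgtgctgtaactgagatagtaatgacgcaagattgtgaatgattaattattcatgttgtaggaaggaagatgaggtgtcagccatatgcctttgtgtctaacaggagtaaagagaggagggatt
Slc17a7, chr7:45163671-45163920: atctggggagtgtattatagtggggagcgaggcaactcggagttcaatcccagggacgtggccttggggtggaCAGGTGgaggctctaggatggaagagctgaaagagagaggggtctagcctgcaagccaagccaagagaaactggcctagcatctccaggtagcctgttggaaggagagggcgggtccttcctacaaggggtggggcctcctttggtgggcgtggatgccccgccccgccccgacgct
The first Slc17a6 window held none of the 3 motifs. The second held CAGATG, beginning 205 bases before the start, and the Slc17a7 window held CAGGTG, beginning 177 bases before the start. Both strands were searched, and CAGCTG reads the same on both. Over the 12 windows of all 10 genes, 3 held CAGATG, 4 held CAGGTG and 1 held CAGCTG. Of 32851 RefSeq windows of the same length, 14.4%, 17.2% and 13.0% held them. A match describes the letters and shows no binding.

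Library totals ran from 26410500 to 43984066 counts, and 3 counts correspond to 0.073 to 0.115 CPM (reads scaled to a common library size, with TMM factors). A level of 1 CPM was reached somewhere by 15547 genes. Myod1 had 0.681 CPM with GFP, 0.804 with NeuroD2 and 77.3 to 857 CPM in the 6 libraries carrying MyoD or a chimera. Neurod2 stood at 2.5 CPM in GFP, 0 in MyoD and 180 CPM in NeuroD2. The chimera had 13.8 CPM of Neurod2, WC 15.8 and WCS 14.6. At MOI 100 the chimera had 73.3 CPM and WCS 130 CPM. The 12 general neuron genes (Tubb3, Dcx and others) summed to 460 CPM in GFP, 279 in MyoD, 804 in the chimera, 2652 in the chimera at MOI 100, 2088 in WC, 2353 in WCS, 5635 in WCS at MOI 100 and 3697 in NeuroD2, and none of the 12 was at 0 in any library. Pou5f1, a marker of the undifferentiated cells, ran from 29.1 CPM in WCS at MOI 100 to 1227 CPM in GFP. Fibroblast markers summed to 31.2 to 118 CPM, and endoderm and neuroendocrine markers to 2.07 to 16.6 CPM. In bulk RNA, fewer cells of a type and less RNA per cell cannot be told apart.

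Of the 9 matched genes, 6 reached 1 CPM in at least 1 library and 3 reached 5 CPM: Slc17a6, Slc17a7 and Gad2. The glutamate transporters were far higher with NeuroD2, the chimera and its mutants than with GFP. In the MyoD library Slc17a7 was high and Slc17a6 was not. The GABA, glycine, acetylcholine and monoamine genes stayed at 5.23 CPM or less throughout. Per kilobase of exon, the NeuroD2 library had 11.2 CPM of Slc17a6, 5.07 of Slc17a7 and 0.475 of Chat, and the other 6 genes were at 0.178 or less.

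Slc17a6 stood at 0.122 CPM in GFP, 0.269 in MyoD, 8.14 in the chimera, 31.2 in the chimera at MOI 100, 54.6 in WC, 60.7 in WCS, 197 in WCS at MOI 100 and 60.6 in NeuroD2. GFP and MyoD were at a few reads, 5 and 7, and all other libraries lay above both. The ratio over GFP was 2.21 in MyoD, with a 95% interval of 0.604 to 8.83 that includes 1. All intervals here come from the 2 read counts alone and cover counting error only, since PCR can give several reads from 1 molecule. The ratio was 66.9 in the chimera (28.2 to 208), 257 in the chimera at MOI 100 (110 to 793), 449 in WC (192 to 1385), 499 in WCS (214 to 1540), 1622 in WCS at MOI 100 (695 to 4999) and 499 in NeuroD2 (213 to 1538). In the order of levels, WCS and NeuroD2 were the only neighbours besides GFP and MyoD whose interval included 1, at 1.001 (0.937 to 1.07).

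**Figure D1:**
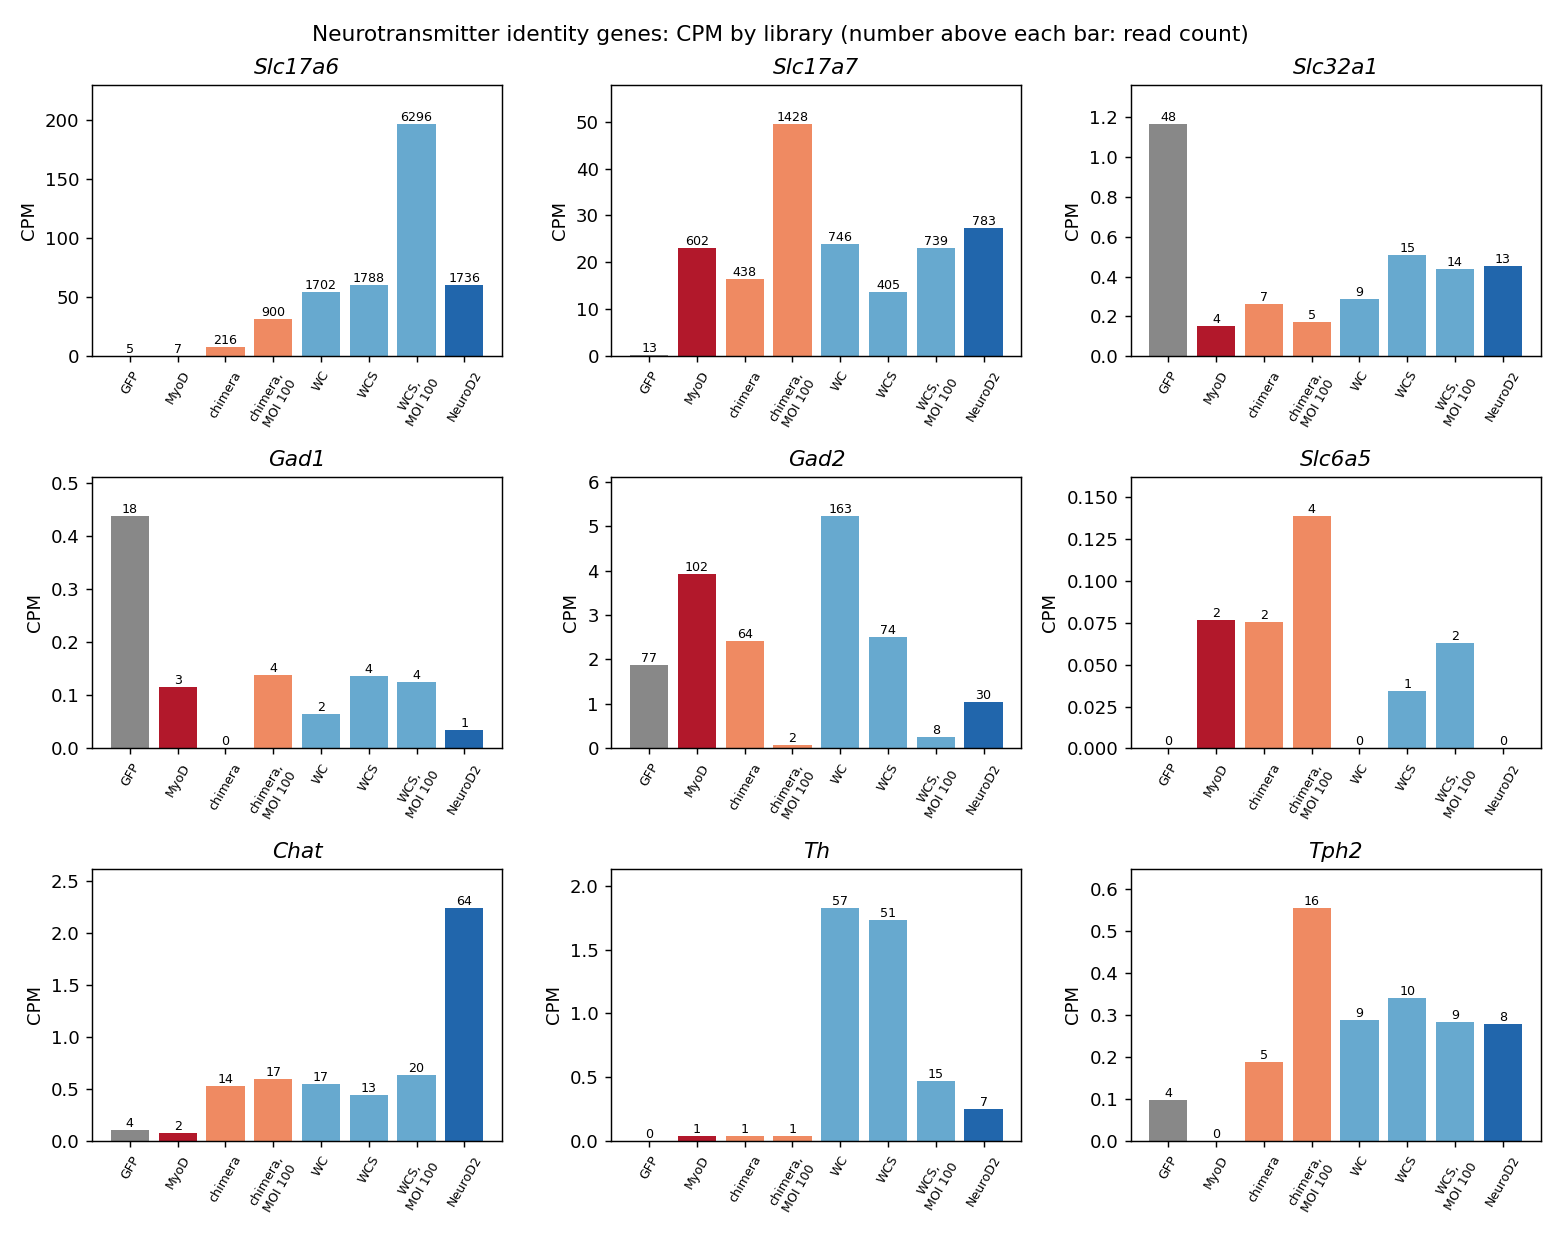
CPM (vertical axis, from 0, a different scale in each panel) of the 9 matched genes in each of the 8 libraries, with the read count above each bar. Slc17a6 and Slc17a7 reach 197 and 49.6 CPM, whereas the tallest bar of the other 7 genes is Gad2 in WC at 5.23 CPM.

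The WC and WCS mutants stood well above the unmutated chimera for Slc17a6. WC was 6.71-fold higher than the chimera (5.82 to 7.77) and WCS 7.46-fold (6.48 to 8.64). At MOI 100 the WCS library was 6.32-fold higher than the chimera (5.89 to 6.78), so the ratio was of similar size at both MOI labels. The MOI 100 label itself went with 3.84-fold more in the chimera (3.31 to 4.47) and 3.25-fold more in WCS (3.08 to 3.43). The chimera at MOI 100 remained 1.94-fold below NeuroD2 (1.79 to 2.11), and WCS at MOI 100 stood 3.25-fold above NeuroD2 (3.08 to 3.43).

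Slc17a7 stood at 0.316 CPM in GFP, 23.1 in MyoD, 16.5 in the chimera, 49.6 in the chimera at MOI 100, 23.9 in WC, 13.8 in WCS, 23.2 in WCS at MOI 100 and 27.4 in NeuroD2. All 7 libraries with a bHLH factor lay far above GFP, and MyoD was among them. The ratio over GFP was 73.1 in MyoD (42.4 to 138) and 86.5 in NeuroD2 (50.3 to 163), and MyoD was 1.18-fold below NeuroD2 (1.06 to 1.32). The lowest ratio was 43.5 in WCS (25.2 to 82.4) and the highest 157 in the chimera at MOI 100 (91.4 to 295). In the order of levels, MyoD and WCS at MOI 100 differed by a ratio of 1.002 (0.898 to 1.12), and WCS at MOI 100 and WC by 1.03 (0.933 to 1.15). The mutants did not share for Slc17a7 the excess over the chimera that they had for Slc17a6. WC was 1.45-fold higher (1.29 to 1.64), while WCS was 1.20-fold lower (1.05 to 1.38) and WCS at MOI 100 was 2.14-fold lower (1.96 to 2.34) than the chimera at the same label.

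**Figure D2:**
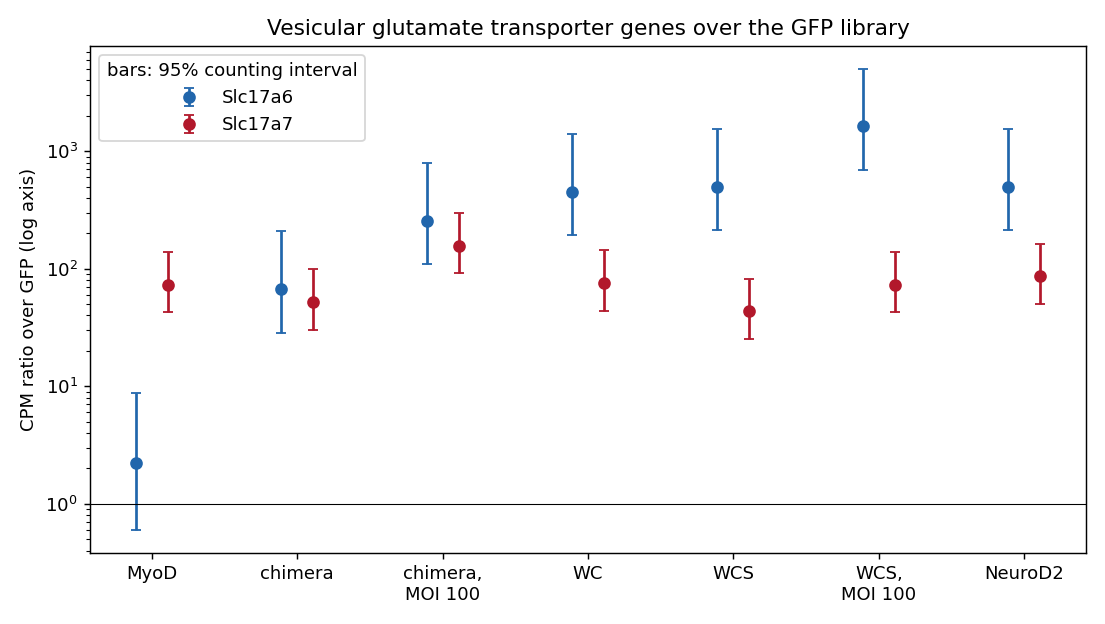
CPM ratio over GFP (log axis) of Slc17a6 and Slc17a7 in the 7 other libraries, with bars for the 95% counting interval from the 2 read counts. The Slc17a7 ratios lie between 43.5 and 157 in all 7 libraries, MyoD included, whereas the Slc17a6 ratio runs from 2.21 in MyoD to 1622 in WCS at MOI 100.

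A size rule was used for counts of genes: a 4-fold or larger difference on log2(CPM + 0.5), in genes whose higher library had 5 CPM or more. By this rule 1 of the 9 genes, Slc17a7, was higher in MyoD than in GFP, against 2.75% of all 15547 genes. Both glutamate transporter genes, 2 of the 9, were higher in each other library. The share of all genes that did so was 2.17% in the chimera, 5.4% in the chimera at MOI 100, 2.57% in WC, 2.54% in WCS, 5.47% in WCS at MOI 100 and 4.37% in NeuroD2. None of the 9 was lower than in GFP by the rule, where the share of all genes was 0.92% in MyoD, 0.72% in the chimera, 2.51% in the chimera at MOI 100, 0.605% in WC, 0.9% in WCS, 3.0% in WCS at MOI 100 and 1.6% in NeuroD2. With no minimum level, Gad2 was lower in the chimera at MOI 100, and 3 genes instead of 2 were higher than in GFP in WC, WCS and NeuroD2. Slc17a6 was the 1 gene higher in WC than in the chimera (0.47% of all genes), in WCS than in the chimera (0.592%) and in WCS than in the chimera at MOI 100 (0.585%). It was also the 1 gene lower in MyoD than in NeuroD2, by 226-fold (109 to 562), where 4.41% of all genes met the rule. The MOI 100 label took 0 of the 9 past 4-fold upward in the chimera (0.727% of all genes) or in WCS (0.714%), and 0 were higher in WCS at MOI 100 than in NeuroD2 (0.251%).

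The balance between the transporters shifted across the series. The exons of the pair are nearly equal in length, and levels of different genes are compared here per kilobase of exon. Slc17a7 was 86.1 times the level of Slc17a6 in MyoD, 2.03 times in the chimera and 1.59 times in the chimera at MOI 100. Slc17a6 was instead 2.28 times the level of Slc17a7 in WC, 4.41 times in WCS, 8.51 times in WCS at MOI 100 and 2.21 times in NeuroD2. The chimera at either MOI label therefore had more Slc17a7 than Slc17a6, as MyoD did, and both mutants had more Slc17a6, as NeuroD2 did. In GFP both genes were near the floor and their ratio rests on 5 and 13 reads.

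Slc17a6 and the general neuron genes moved in the same order in part. Per 1000 CPM of the 12 neuron genes, Slc17a6 stood at 0.265 CPM in GFP, 0.964 in MyoD, 10.1 in the chimera, 11.8 in the chimera at MOI 100, 26.2 in WC, 25.8 in WCS, 35.0 in WCS at MOI 100 and 16.4 in NeuroD2. On this scale the chimera libraries were the lowest of those with neuron genes above the GFP sum, and NeuroD2 lay between them and the mutants. The part of the neuron genes in the differences of Slc17a6 was not tested. Slc17a7 did not follow them. Per 1000 CPM of the same 12 genes it stood at 82.9 CPM in MyoD, where the neuron sum was below that of GFP, and between 4.11 and 20.5 CPM in the 6 libraries with the chimera, its mutants or NeuroD2. In MyoD the 10 skeletal muscle markers summed to 10433 CPM against 62.8 CPM in GFP. They summed to 971 CPM in the chimera and 1576 CPM in the chimera at MOI 100, but to 19.04 to 56.8 CPM in WC, WCS, WCS at MOI 100 and NeuroD2, with Myog at 0 reads in WCS. In these last 4 libraries Slc17a7 was 43.5-fold to 86.5-fold above GFP. The part of the muscle markers in the level of Slc17a7 was not tested.

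**Figure D3:**
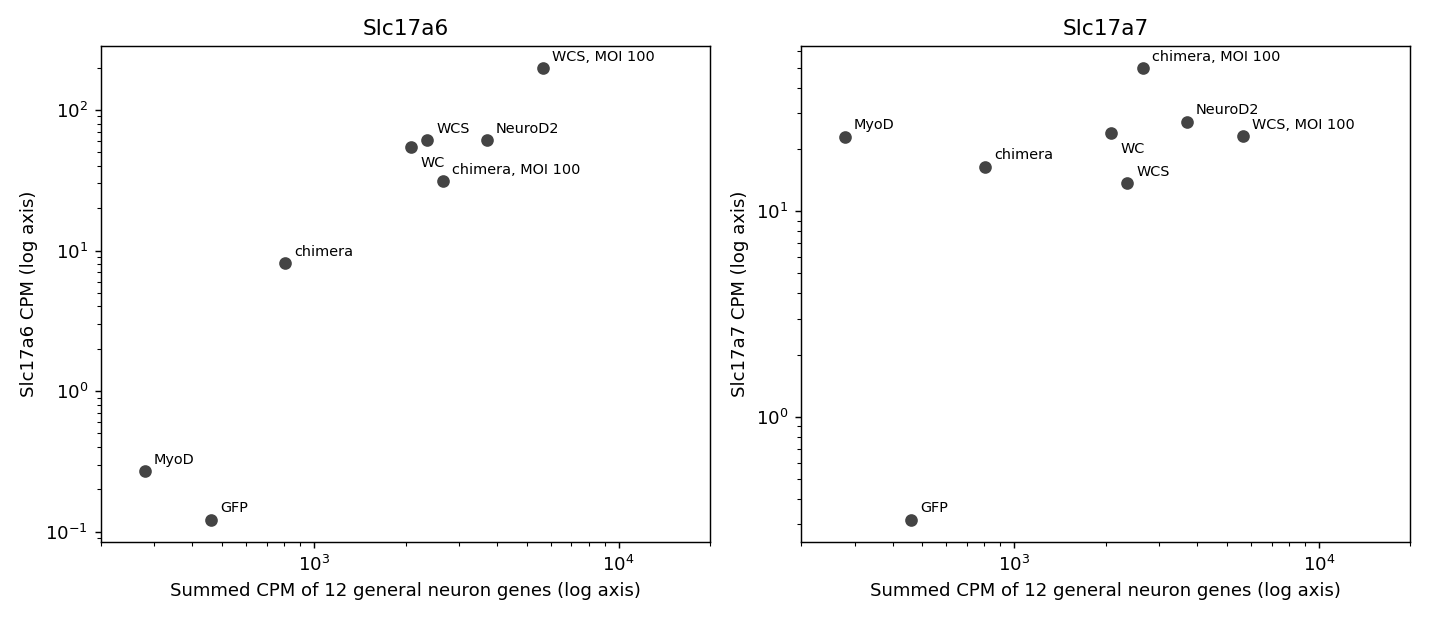
CPM of Slc17a6 (left) and Slc17a7 (right) against the summed CPM of 12 general neuron genes, all on log axes, with 1 point per library. Slc17a6 is high only where the neuron sum is at least 804 CPM, whereas Slc17a7 stands at 23.1 CPM in MyoD, where the neuron sum is 279 CPM.

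The GABA genes did not accompany the glutamate transporters. Per kilobase of exon, Slc17a6 and Slc17a7 together gave 0.0812 CPM in GFP, against 0.793 CPM for Gad1, Gad2 and Slc32a1 together. With NeuroD2 the sums per kilobase were 16.3 and 0.345 CPM, and in WCS at MOI 100 they were 40.8 and 0.216 CPM. In MyoD they were 4.34 and 0.737 CPM, and in WC 14.6 and 1.002 CPM. GFP was thus the 1 library of 8 in which the GABA genes summed to more per kilobase than the glutamate transporters.

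Gad2, one of the GABA-making enzymes, stood at 1.87 CPM in GFP, 3.92 in MyoD, 2.41 in the chimera, 0.0694 in the chimera at MOI 100, 5.23 in WC, 2.51 in WCS, 0.251 in WCS at MOI 100 and 1.05 in NeuroD2. The MOI 100 libraries were the lowest, with 2 and 8 reads, and WC and MyoD the highest, with 163 and 102. Against GFP, Gad2 was 27.0-fold lower in the chimera at MOI 100 (7.22 to 227) and 7.47-fold lower in WCS at MOI 100 (3.61 to 17.9). Gad2 was 34.7-fold lower in the chimera at MOI 100 than in the chimera (9.23 to 293) and 10.03-fold lower in WCS at MOI 100 than in WCS (4.83 to 24.1). WC was 2.79-fold above GFP (2.12 to 3.71) and 2.08-fold above WCS (1.57 to 2.78). MyoD was 2.09-fold above GFP (1.54 to 2.85) and NeuroD2 was 1.79-fold below it (1.16 to 2.82). The chimera and WCS, at 1.29 and 1.34 times GFP, had intervals that include 1.

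Gad1 and Slc32a1 were highest in GFP. Slc32a1 had 48 reads, or 1.17 CPM, in GFP and 4 to 15 reads in the other libraries, with 0.154 CPM in MyoD and 0.510 CPM in WCS as the lowest and highest of them. The 7 other libraries were 2.29-fold (WCS, 1.26 to 4.40) to 7.60-fold (MyoD, 2.78 to 29.0) below GFP, and all 7 intervals excluded 1. All 6 neighbouring pairs in the order of these 7 had intervals that include 1, whereas their highest and lowest, WCS and MyoD, differed 3.32-fold (1.06 to 13.7). Of the Slc32a1 exons, 697 of 2797 bases overlap Gm14205, a gene on the opposite strand, and the strand setting of the counts is not given in the sources used here. Gad1 had 18 reads in GFP (0.438 CPM) and 0 to 4 reads elsewhere. Slc6a5, the glycine transporter, had 0 to 4 reads in every library, with 0.139 CPM as its highest level.

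Chat, the acetylcholine-making enzyme, had 4 reads in GFP, 2 in MyoD, 14 in the chimera, 17 in the chimera at MOI 100, 17 in WC, 13 in WCS, 20 in WCS at MOI 100 and 64 in NeuroD2. NeuroD2 was the highest at 2.24 CPM, and the 5 chimera and mutant libraries lay close together at 0.442 to 0.627 CPM. NeuroD2 was 23.0-fold above GFP (8.55 to 86.9) and 3.57-fold above WCS at MOI 100 (2.13 to 6.22), the next library in order. The chimera, WC and WCS libraries at either label were 4.54-fold to 6.44-fold above GFP. The order was another for Slc17a6, for which WCS stood level with NeuroD2 and WCS at MOI 100 above it.

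Th, the catecholamine-making enzyme, had 0 reads in GFP, 1 in MyoD, 1 in the chimera, 1 in the chimera at MOI 100, 57 in WC, 51 in WCS, 15 in WCS at MOI 100 and 7 in NeuroD2. The WC and WCS libraries were highest, at 1.83 and 1.73 CPM, and they lay far above the unmutated chimera. Against the 1 read of the chimera, WC was 48.6-fold higher (8.37 to 1951), WCS 46.0-fold (7.89 to 1851) and WCS at MOI 100 was 13.5-fold above the chimera at that label (2.08 to 570). Against a floor of 3 reads in GFP, WC was at least 25.1-fold higher and WCS at least 23.7-fold. Unlike Slc17a6, Th was lower with the MOI 100 label, by 3.69-fold in WCS (2.04 to 7.06), and WC stood 7.48-fold above NeuroD2 (3.41 to 19.4). Tph2, the serotonin-making enzyme, had 0 to 16 reads and at most 0.555 CPM, in the chimera at MOI 100, which was 5.71-fold above GFP (1.84 to 23.5).

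Only the chimera and WCS were measured with and without the MOI 100 label, and these 4 libraries were fitted together in edgeR (quasi-likelihood test), with terms for construct and for the label. The fit has 1 residual degree of freedom. Its p-values measure how alike a difference was at both labels, not the spread between cultures. Of the 9 genes, 6 passed the filter on low counts. Between constructs, 2 rose in WCS and 0 fell by edgeR or by DESeq2's Wald test, with 1 lower at an unadjusted p under 0.05 in each. By edgeR 5.84% of the 16079 tested genes rose and 5.49% fell. Slc17a6 rose by 2.77 on the log2 scale (edgeR adjusted p = 0.00011) and Th by 4.68 (edgeR adjusted p = 0.0071). Slc17a7 differed by -0.69 (edgeR adjusted p = 0.090), and Chat by -0.07 (edgeR adjusted p = 0.96). Dropping the MOI term ended both calls, and then 0 of the 16079 tested genes were called upward. Leaving out any 1 library, which also removes the MOI term and leaves 1 library of a construct, ended them too. These fits have fewer terms or fewer libraries than the main one, and why the calls were lost was not tested.

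With the MOI 100 label, 2 of the 6 rose and 1 fell, where 13.4% of tested genes rose and 12.2% fell. Slc17a6 rose by 1.81 (edgeR adjusted p = 0.00071) and Slc17a7 by 1.17 (edgeR adjusted p = 0.00999). Gad2 fell by 3.92 (edgeR adjusted p = 0.0039), and Th differed by -1.69 (edgeR adjusted p = 0.072). The general neuron genes moved the same way as Slc17a6 in this fit: 10 of 12 rose in WCS and 11 of 12 rose with the MOI label. Of 7 tested embryonal carcinoma markers, 6 fell with the MOI label and 1, Esrrb, rose. The delivered sequence moved too, since Myod1 stood at 116 and 77.3 CPM in the chimera and WCS, and at 555 and 857 CPM with the label. Their part in these calls was not tested.

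**Figure D4:**
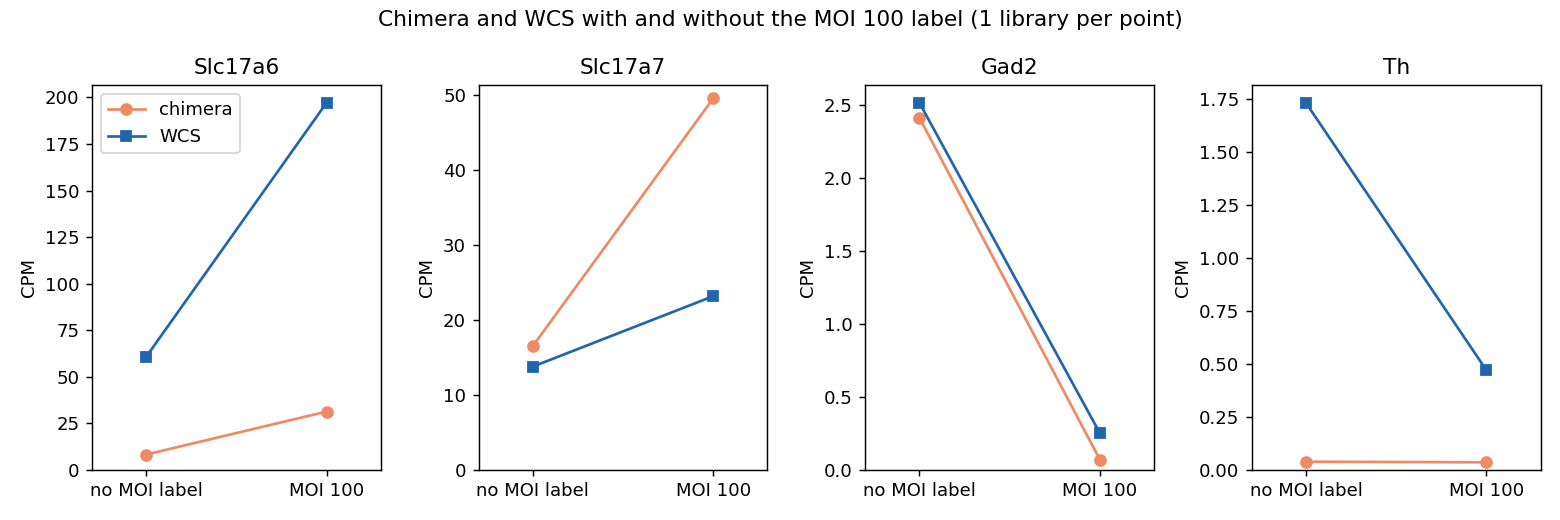
CPM (from 0, a different scale in each panel) of Slc17a6, Slc17a7, Gad2 and Th in the chimera and WCS without a MOI label and at MOI 100, with 1 library per point. The WCS line lies above the chimera line for Slc17a6 and Th, below it for Slc17a7, and both lines of Gad2 drop to 0.251 CPM or less.

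The other genes of each transmitter's pathway were read from lists by transmitter. Of 12 glutamate genes, 3 met the size rule upward in all 6 libraries with the chimera, its mutants or NeuroD2. They were the vesicular pair and Slc1a2, a glutamate uptake transporter. The share of all genes that did so was 2.17% to 5.47%. Downward, 3 met it in WCS at MOI 100 (3.0% of all genes), Slc1a6, Gls2 and Slc1a3. In the chimera at MOI 100 2 did (2.51%), Slc1a6 and Gls2. In MyoD (0.92%), WC (0.605%), WCS (0.9%) and NeuroD2 (1.6%) 1 did, Slc1a6, and in the chimera (0.72%) 0 did. Gls2 and Slc1a3 are named after their values were seen. Slc1a2, a gene best known from astrocytes, stood at 0.584 CPM in GFP, 2.995 in MyoD, 45.0 in the chimera, 150 in the chimera at MOI 100, 92.3 in WC, 68.1 in WCS, 174 in WCS at MOI 100 and 180 in NeuroD2. At MOI 100 the WCS to chimera ratio of Slc1a2 was 1.16 (1.12 to 1.21), smaller than the 6.32 of Slc17a6. Without the label Slc1a2 was also higher in WCS, at 68.1 CPM against 45.0 CPM in the chimera. The 10 glia markers, Slc1a2 among them, summed to 45.3 CPM in GFP and 254 CPM in NeuroD2, where Slc1a2 alone gave 180 CPM of it. Slc1a6, another uptake transporter, was 4.13-fold (chimera) to 17.9-fold (chimera at MOI 100) below GFP. The median log2 ratio of the list's 10 genes reaching 1 CPM was 0.17 in MyoD and 0.39 in NeuroD2, beside -0.03 and 0.03 over all genes. Of the 6 glycine genes 0 met the rule over GFP in either direction in the 7 libraries, with medians of 0.68 in MyoD and 0.09 in NeuroD2. The share of all genes was 2.17% to 5.47% upward and 0.605% to 3.0% downward.

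In the GABA list the uptake transporter gene Slc6a11 was, like Gad2, lowest in the MOI 100 libraries. Slc6a11 (GAT3) was 11.6-fold below GFP in the chimera at MOI 100 (9.03 to 15.0) and 15.9-fold below it in WCS at MOI 100 (12.1 to 21.3). The list's median log2 ratio was -1.06 and -0.84 in these libraries, beside 0.04 and 0.01 over all genes. In the 4-library fit 3 of 6 tested GABA genes fell with the MOI label by edgeR, where 12.2% of all tested genes did. They were Gad2, Slc6a11 and Aldh5a1, the last named after its values were seen. Slc6a13 (GAT2) was instead highest in MyoD, 18.7-fold above GFP (11.5 to 32.1).

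In the acetylcholine list the size rule was met upward by the enzymes that break acetylcholine down, Ache and Bche. Chat did not meet it in any library, since it stayed below the 5 CPM minimum. By ratio alone Chat was 23.0-fold above GFP in NeuroD2 (8.55 to 86.9). Ache, acetylcholinesterase, which acts at neuronal and at neuromuscular synapses, stood at 0.389 CPM in GFP, 27.0 in MyoD, 2.45 in the chimera, 17.7 in the chimera at MOI 100, 14.6 in WC, 13.8 in WCS, 32.5 in WCS at MOI 100 and 18.5 in NeuroD2. It was high in both the MyoD and the NeuroD2 library, as Slc17a7 was, and low in the chimera. Bche, a related esterase, was highest in the chimera at MOI 100, 19.3-fold above GFP (13.6 to 28.3). Slc44a1, a choline transporter of many cell types, was 5.34-fold below GFP in the same library (4.86 to 5.88). The list's median log2 ratio was 0.83 in MyoD and 1.39 in NeuroD2.

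Few genes of the catecholamine list met the size rule. Of the 12 that reached 1 CPM, 1 was higher in MyoD (2.75% of all genes) and 1 in the chimera at MOI 100 (5.4%). They were Ddc, which makes dopamine and serotonin from their precursors (21.1 CPM against 3.96 CPM in GFP), and Slc18a2, the vesicular monoamine transporter (5.55 against 0.827 CPM). The list's median log2 ratio was 0.12 in MyoD and 0.30 in NeuroD2. Gch1, which starts the synthesis of the cofactor that Th and Tph2 need, was 6.99-fold below GFP in the chimera at MOI 100 (5.54 to 8.92) and 8.74-fold below it in WCS at MOI 100 (6.84 to 11.3). The Th reads in WC and WCS thus had no counterpart in Ddc, which stood at 4.08 and 3.74 CPM there, or in Gch1, at 6.23 and 5.91 CPM. The neural crest and adrenergic markers summed to 60.7 and 59.5 CPM in WC and WCS, below the 130 CPM of GFP, with none of the 10 at 0. In the 4-library fit 1 of 13 tested catecholamine genes, Th, rose in WCS (5.84% of all tested genes) and 1, Dbh, fell (5.49%). With the MOI label Dbh and Slc6a2 rose (13.4%) and Gch1 and Maoa fell (12.2%). Dbh, Slc6a2 and Maoa are named after their values were seen.

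Of the 7 serotonin and histamine genes 2 reached 1 CPM, Ddc and Tph1. Their median log2 ratio was 1.10 in MyoD, 1.02 in the chimera and 1.40 in the chimera at MOI 100, and -0.42 to 0.50 in the other 4 libraries. Tph1, which makes serotonin mainly outside the brain and is named after its values were seen, stood at 0.146 CPM in GFP, 0.115 in MyoD, 1.70 in the chimera, 3.19 in the chimera at MOI 100, 0.128 in WC, 0.0679 in WCS, 0.313 in WCS at MOI 100 and 0.769 in NeuroD2. It was highest in the chimera libraries, as Tph2 was in the chimera at MOI 100, and in the 4-library fit it fell by 3.71 on the log2 scale in WCS (edgeR adjusted p = 0.0040).

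**Figure D5:**
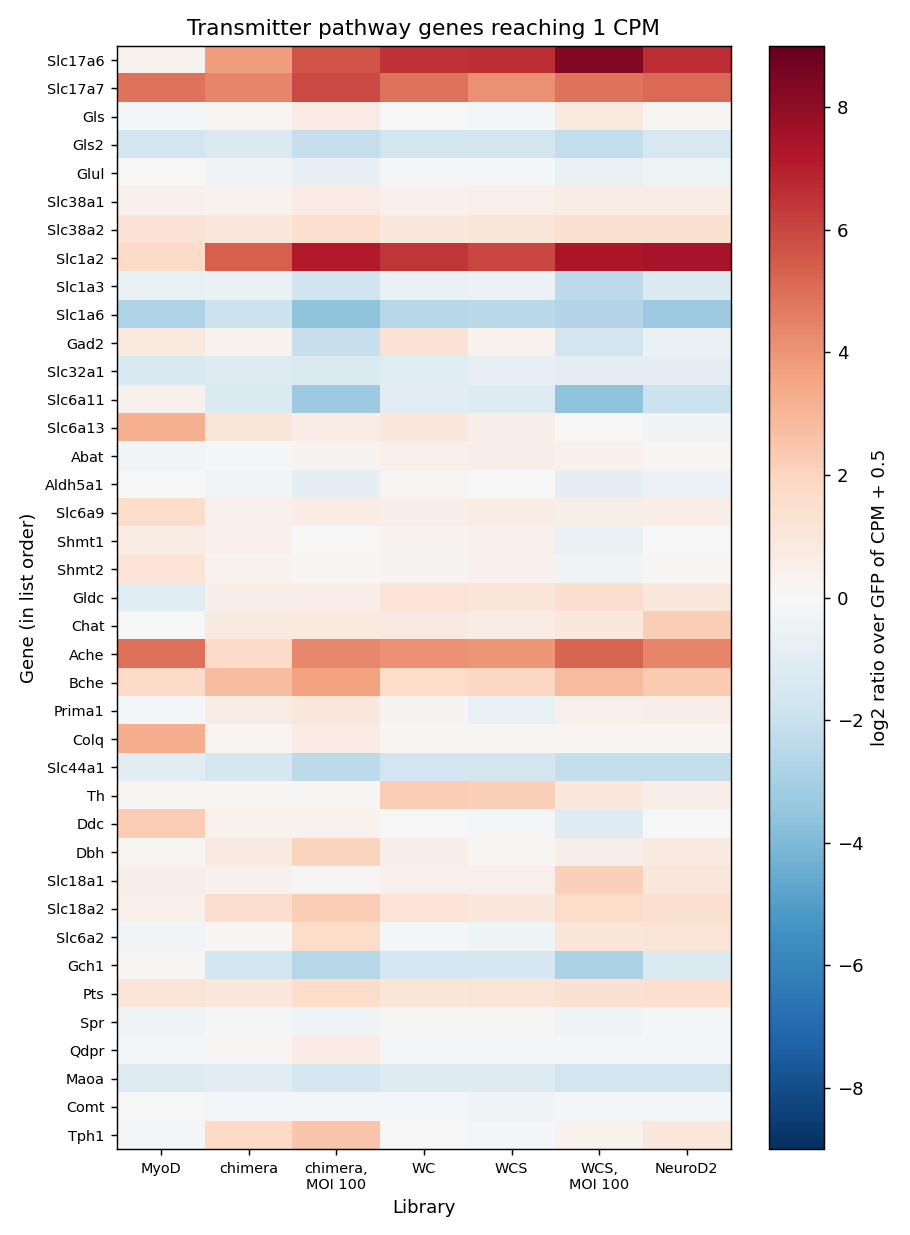
log2 ratio over GFP of CPM + 0.5 (colour, red higher and blue lower) for the 39 transmitter pathway genes that reached 1 CPM, in list order, in the 7 other libraries. The darkest rows are Slc17a6, Slc17a7, Slc1a2 and Ache, and the GABA uptake gene Slc6a11 is blue in both MOI 100 libraries.

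Transcription factors known to direct transmitter choice were read the same way. Of 17 factors of glutamatergic neurons, 6 met the size rule upward in NeuroD2 (4.37% of all genes), 6 in WC (2.57%), 6 in WCS (2.54%), 6 in WCS at MOI 100 (5.47%), 4 in the chimera at MOI 100 (5.4%), 2 in the chimera (2.17%) and 0 in MyoD (2.75%). Downward, 1 met it in WCS at MOI 100 (3.0%), Lmx1b, named after its values were seen, at 0.940 CPM against 6.32 CPM in GFP. The list's median log2 ratio was 1.92 in NeuroD2, 2.49 in WCS at MOI 100 and -0.22 in MyoD. Lhx9, a LIM homeobox factor, stood at 0.0243 CPM in GFP, 0.154 in MyoD, 2.22 in the chimera, 7.57 in the chimera at MOI 100, 18.6 in WC, 30.6 in WCS, 100.2 in WCS at MOI 100 and 8.18 in NeuroD2. Its WCS to chimera ratio was 13.8 (10.6 to 18.3) without a MOI label and 13.2 (11.5 to 15.3) with it, larger than that of Slc17a6. Barhl1, a homeobox factor of hindbrain glutamatergic neurons, stood at 34.1 CPM in WCS at MOI 100 and at 0.629 CPM in NeuroD2. Pou4f1, a POU factor of sensory neurons, had the reverse order of constructs, with 31.8 CPM in the chimera at MOI 100 and 12.1 CPM in WCS at MOI 100. In the 4-library fit 7 of 14 tested glutamatergic factors rose in WCS and 1, Pou4f1, fell, where 5.84% and 5.49% of all tested genes did.

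Of 19 GABAergic and glycinergic factors, 3 met the rule upward in NeuroD2 (4.37% of all genes), namely Pax2, Lhx1 and Lhx5, with a median log2 ratio of 0.58. In WC (2.57%), WCS (2.54%) and WCS at MOI 100 (5.47%), 2 did so in each, Lhx1 and Lhx5. In the chimera at MOI 100 1 of the 19 did, Lhx1, beside 5.4% of all genes. In the chimera (2.17%) and in MyoD (2.75%) 0 did. Gata3, a factor of some GABAergic neurons named after its values were seen, met the rule downward in each library except MyoD. The share of all genes that did so in those libraries was 0.605% to 3.0%. Gata3 was at 1.47 CPM with NeuroD2 against 17.0 CPM with GFP. The medians of the cholinergic and the monoaminergic factors in NeuroD2 were 2.04 and -0.43. Lhx5 stood at 2.19 CPM in GFP, 2.49 in the chimera, 25.3 in WCS and 39.0 in NeuroD2. Gad1 and Slc32a1 had 13 reads or fewer in NeuroD2. Gad2 had 30 reads there, or 1.05 CPM, beside 1.87 CPM in GFP and 2.51 CPM in WCS. Olig2, a factor of motor neuron progenitors, was 223-fold above GFP in NeuroD2 (117 to 490), and Isl1 stood at 0 reads in GFP and 6.53 CPM in NeuroD2. Pitx3, a factor of midbrain dopamine neurons that muscle also expresses, was 202-fold above GFP in MyoD (118 to 381) and had 64.0 CPM there, with Th at 1 read. In WC and WCS, where Th was highest, Pitx3 stood at 0.417 and 0.136 CPM.

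Genes with the most similar pattern to each of the 3 genes that reached 5 CPM were found by Pearson's r of log2(CPM + 0.5) over the 8 libraries, among 12431 genes. The values describe 8 libraries that share 1 control and differ in depth, and r takes no account of the size of a change. Slc17a6 was closest to Uncx, a homeobox factor (r = 0.997), Chgb, a secretory granule protein (0.996), and Golm1, a Golgi protein (0.994). Uncx ran from 0.0486 CPM in GFP to 70.2 CPM in WCS at MOI 100, and Chgb from 0.851 to 756 CPM. Slc17a7 was closest to Trrap, a scaffold of histone acetyltransferase complexes (r = 0.995), Rexo2 (0.983) and Atpaf1 (0.983). These genes were lowest in GFP but differed little, with Trrap at 94.0 CPM in GFP and 172 to 216 CPM elsewhere. Gad2 was closest to Ptch1, the Hedgehog receptor (r = 0.975), Mettl4 (0.961) and Atp2a3 (0.956). Ptch1 was lowest at 53.0 and 60.4 CPM in the MOI 100 libraries and highest at 112 CPM in WC, the same extremes as Gad2.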

How the data were processed

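RNA from 8 cultures of P19 cells was measured, 1 library per group. The authors' deposited table holds raw read counts per Ensembl gene. Per the labels' protocols, oligo-dT selected libraries were run on an Illumina HiSeq. CASAVA 1.8.2, TopHat2 2.0.8 and the mm9 build are named in the submitters' processing notes. Which tool, annotation and strand option produced the counts is not given in the sources used here. Antisense or overlapping reads cannot be separated, nor can isoforms. Symbols came from GENCODE by Ensembl identifier for 32850 genes (87.5%), and genes with no symbol held at most 1.53% of a library's counts.

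The genes and gene lists were chosen with earlier results of these data known. Counts were scaled by TMM over the 8 libraries (edgeR 4.0.16, R 4.3.3). With 1 library per group no test of groups was made. CPM ratios have exact conditional binomial (Clopper-Pearson) 95% intervals, which cover counting error only. Against 0 counts a floor of 3 counts per library was used. Genes of the lists were named if they met the size rule over GFP in at least 1 library, at most the 4 largest per list. Genes outside that rule are marked. 1 gene of the GABA list and 1 of the GABAergic factors are not reported here and were left out of the lists' counts and medians. The 4 chimera and WCS libraries entered edgeR's quasi-likelihood test after filterByExpr, with Benjamini-Hochberg adjustment over all tested genes and a threshold of 0.05. The fit and the intervals were run on simulated data with known differences as a check of the code. The counts simulated for the fit held no MOI effect. That check does not show how the fit behaves on these libraries. Alternatives were DESeq2 1.42.0, its size factors, total counts, a pseudocount of 2 CPM, no minimum level, an 8-fold threshold, no filter, no MOI term and each library left out. Exon lengths came from GENCODE and promoters from RefSeq (GRCm38.p6), neither on the mm9 build, so no coordinate was joined to the counts by position. Python 3.11.15 and scipy 1.17.1 were used.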

Additional observations from a re-analysis of the deposited data

How the results depend on the processing

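No paired analysis was possible because no group has a second library, so no replicate numbers are shared. The 4-library fit sets the constructs side by side at each MOI label instead. Counts by the size rule were within 1.5 times the main count in 98 of 105 comparisons with an alternative. With no minimum level, 2 genes instead of 1 were higher in WC and in WCS than in the chimera, 2 instead of 1 were lower in MyoD than in NeuroD2, and 1 instead of 0, Gad2, was lower in the chimera at MOI 100 than in GFP. That setting also gave 3 genes instead of 2 higher than in GFP in WC, WCS and NeuroD2, counts that are within 1.5 times. With an 8-fold threshold, 0 instead of 1 were higher in WC or WCS than in the chimera, and 0 instead of 1 in WCS than in the chimera at MOI 100. Of 48 CPM ratios recomputed with other scalings, 47 moved by less than their interval. The exception was Slc17a6 in WCS at MOI 100 over WCS, at 3.56 with total counts. With coding length in place of exon length, an alternative chosen after seeing the data, the Slc17a6 to Slc17a7 ratio in WCS at MOI 100 was 8.56.

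In the 4-library fit the 2 genes called between constructs became 0 without the MOI term, where 2 had an unadjusted p under 0.05, and 0 genes of all tested were called upward by edgeR, against 939. Each library was also left out in turn, together with the MOI term, which leaves 1 library of a construct. Neither gene was called in these fits, and the reason was not tested. The estimate for Slc17a6 then ran from 1.64 without WCS at MOI 100 to 4.001 without the chimera at MOI 100, and that for Th from 3.56 to 5.43. These fits have fewer terms or fewer libraries than the main one. DESeq2's Wald test, its size factors and no filter on low counts gave the same 2 genes between constructs and 2 up and 1 down for the MOI label. No called result changed direction in the alternatives run. Construct estimates that were not called did so when 1 library and the MOI term were left out. Without the chimera at MOI 100, Slc17a7 went from -0.69 to 0.17, Gad2 from 0.39 to -0.81 and Chat from -0.07 to 0.03. Without WCS, Gad2 was at -2.28 and Chat at 0.17. Depth limits Gad1, Gad2, Slc6a5, Chat, Th and Tph2, where 3 reads or fewer stood in at least 1 library each.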
